A study of Rattus norvegicus with 5 samples.

Results

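The response of cultured rat hepatic stellate cells to calcitriol was read on 4 of the 5 arrays of the series. The comparison was between 2 groups, each of 2 Illumina bead arrays hybridised with total RNA of primary hepatic stellate cells from male Wistar rats aged 10 weeks. In the first group, cells at day 3 had been given 100 nM calcitriol for 24 h, and in the second, cells at day 3 had been given vehicle. The stated question is what a vitamin D ligand does to the activated state of these cells. All named genes whose probe was detected on at least 2 of the 4 arrays were considered, 6538 genes from 8899 of 22523 probes. The fifth array, labelled as untreated cells just after isolation, was left out of normalization and of all tests. On that array the probe of Cyp24a1 was detected, with a deposited signal of 382, against 510 and 591 on the calcitriol arrays and 105 and 84.4 on the vehicle arrays. The labels do not say that the replicates were separate cultures or animals, so p-values reflect just the scatter among these 4 arrays, possibly technical. The calcitriol arrays took positions C and D of the chip and the vehicle arrays positions A and B, so position and treatment cannot be told apart.

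Calcitriol, or 1,25-dihydroxyvitamin D3, is the hormonal form of vitamin D. It enters cells and binds the vitamin D receptor, a nuclear receptor that pairs with a retinoid X receptor, sits on DNA and recruits coactivators or corepressors. The best known target in most tissues is Cyp24a1, the 24-hydroxylase that begins the breakdown of calcitriol itself. Stellate cells are the vitamin A storing pericytes of the liver sinusoid. On plastic, as in injured liver, they lose their lipid droplets and turn into contractile myofibroblasts that make collagen, and in rodents vitamin D receptor ligands are known to hold back parts of this change.

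The 4 arrays were similar in bead counts, but vehicle replicate 2 was the dimmest and had the fewest detected probes. Its 95th percentile of signal was 24.5 times its median undetected signal, against 30.7 to 35.2 on the other arrays compared. Mean deposited signals were 739 and 817 on the calcitriol arrays and 764 and 608 on the vehicle arrays, with 8316 to 9112 probes detected and a median of 40 or 41 beads per probe. After normalization the calcitriol arrays correlated at r = 0.992 with each other and the vehicle arrays at r = 0.990, while arrays of different groups correlated at 0.976 to 0.985. The median difference between replicate arrays was 0.15 on the log2 scale with calcitriol and 0.16 with vehicle. The number of arrays limits the precision of every value below. Of 22 stellate cell markers with a named probe, 16 were detected on all 4 arrays. Among them were desmin (Des), vimentin (Vim), reelin (Reln), Hgf, Cygb and the collagen genes, while Gfap, Ngfr, Ntf3, Steap4 and Angptl6 were detected on none. Macrophage markers were detected as well, 23 of 26 with a named probe on all 4 arrays, as were 12 of 25 endothelial markers. Detection alone thus does not single out the labelled cell type. Of 48 hepatocyte markers, 39 were detected on no array, albumin (Alb) included.

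With calcitriol a small part of the measured genes passed the threshold, and by the main settings more rose than fell. With a variance trend in the test the balance turned, at 327 probes higher and 346 lower. Among probes detected on all 4 arrays it was 173 higher and 145 lower. Called genes detected in 1 group only, 35 higher and 6 lower, passed the filter just through the group where they were high. The excess of rises rests in part on these genes. Of the 6538 named genes, 207 (3.17%) passed an adjusted p of 0.05 in limma's moderated test, 129 (1.97%) higher and 78 (1.19%) lower with calcitriol. Over all kept probes 273 (3.07%) passed, 169 higher and 104 lower, and 63 of these have no gene name here. In all 207 called genes both calcitriol arrays lay beyond both vehicle arrays, a separation also seen in 49.1% of all named genes. The median log2 change over named genes was 0.00035, and 50.1% of named genes had a value above 0. Of the genes that rose and were detected in both groups, 94 in number, the median rise was 2.13-fold and 21 exceeded 3-fold. Of the 72 corresponding genes that fell, the median fall was 1.98-fold and 6 exceeded 3-fold. A further 35 called genes were not detected on either vehicle array and 6 were not detected on either calcitriol array, and their changes are given as lower bounds. Genes said to have risen or fallen all had an adjusted p under 0.05, also where it is not printed. A bound sets the mean level of the detected group against, on each array of the other, the lowest level of any detected probe or the gene's own level, whichever was higher. Where the measured fold was smaller under another background correction or normalization, that fold is given in place of the bound.

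The calls rest on both calcitriol arrays. Without calcitriol replicate 1 or without calcitriol replicate 2, 2 probes passed in each case, with 1299 and 861 probes at an unadjusted p under 0.05, against 1530 with all 4 arrays. These fits have 1 residual degree of freedom, and the lone calcitriol array is assumed to vary like the vehicle arrays. Without vehicle replicate 1 there were 217 calls and without vehicle replicate 2 there were 150. All 273 called probes kept the sign of their change whichever array was left out. This was nearly fixed beforehand, since both calcitriol arrays lay beyond both vehicle arrays in every called named gene. Cela2a was the named gene still called without either of the calcitriol arrays. These losses apply to every call named below. In the counts of gene lists below, a range in parentheses gives the lowest and highest counts over the other processing settings that kept both calcitriol arrays. It leaves aside the filter to detection on all 4 arrays, which removes genes detected in 1 group only. Such genes count as measured just because they were detected in the group where they were high, so their part in a count lends it no support. The lists were chosen with earlier results of these data known, so their counts beside the shares of all named genes are descriptive only. Where no share is printed beside a count, those of all named genes were 1.97% higher and 1.19% lower. Counts at an unadjusted p under 0.05 are to be read beside the 1530 of all 8899 kept probes.

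**Figure D1:**
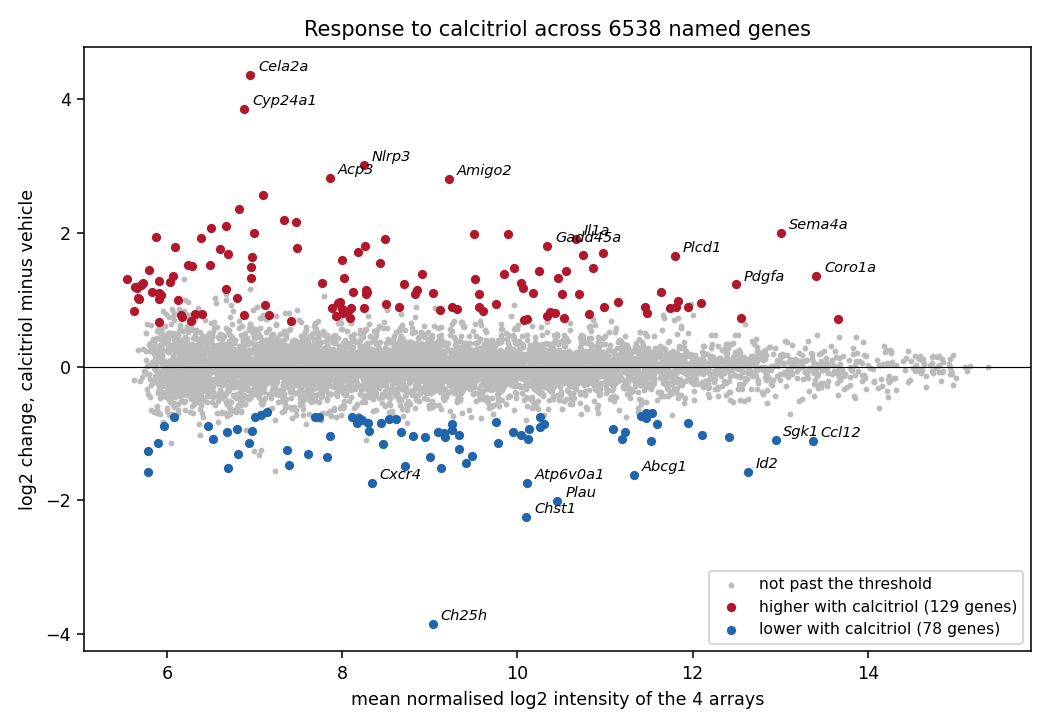
Log2 change of each named gene (vertical axis, calcitriol minus vehicle) against its mean normalised log2 intensity over the 4 arrays (horizontal axis). Red points are the 129 genes higher with calcitriol, blue points the 78 lower and grey points the genes not past the threshold, and called genes lie along most of the horizontal axis.

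The vitamin D system itself changed in 2 of its 9 measured genes, the catabolic enzyme and the receptor (range 1 to 2 higher, 0 to 1 lower). Of all named genes 3.17% passed in either direction. Both called genes were kept by the filter just through the calcitriol arrays, so their count beside that share is no test. Of the 9 genes 6 were detected on all 4 arrays, and neither called gene was among them. Cyp24a1 had normalised log2 intensities of 8.76 and 8.85 on the calcitriol arrays, against 5.09 and 4.82 on the vehicle arrays. Signal was detected only on the calcitriol arrays. Its rise was at least 5.62-fold (log2 change 3.85 ± 0.15 (SE), limma's adjusted p = 0.000411). Vdr, the receptor gene, had 6.39 and 6.54 on the calcitriol arrays, against 5.60 and 5.11 on the vehicle arrays. It too had no detectable signal with vehicle, and its rise was at least 1.31-fold (adjusted p = 0.0387). Without background correction the log2 changes were 2.49 for Cyp24a1 and 0.56 for Vdr. Vdr did not pass without a filter on dim probes, with probes detected on at least 1 array, with a minimum fold of 1.2 or without vehicle replicate 2. The retinoid X receptor genes did not pass: the log2 change was -0.15 ± 0.18 for Rxra (95% interval -0.59 to 0.28) and 0.02 ± 0.14 for Rxrb (-0.32 to 0.37), both with adjusted p-values above 0.7. The signs of these 2 values turned when single arrays were left out. Cyp27b1, which makes calcitriol, has no named probe and was not analysed here.

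A list of 29 known vitamin D receptor targets from other cell types, of which 15 were measured, held 5 genes that rose and 1 that fell (range 2 to 5 higher, 0 to 1 lower), against 3.17% of all named genes in either direction. Besides Cyp24a1 and Vdr, the risers were Gadd45a, Areg and Hbegf. Among the members detected on all 4 arrays 2 rose and 1 fell, with a median log2 change of 0.05. Gadd45a, a stress-induced inhibitor of cell cycle progression, had 11.12 and 11.37 on the calcitriol arrays, against 9.56 and 9.31 on the vehicle arrays, a 3.51-fold rise (log2 change 1.81 ± 0.16, adjusted p = 0.00409). Atp2b1, the plasma membrane calcium pump PMCA1, which calcitriol raises in rat intestine, had 11.05 and 11.02 on the calcitriol arrays, against 11.88 and 11.68 on the vehicle arrays. It fell by 0.74 on the log2 scale (adjusted p = 0.0465). Lrp5, a Wnt coreceptor, had a log2 change of 0.99 ± 0.29 that did not pass (95% interval 0.28 to 1.70, adjusted p = 0.156), and neither did Thbd (0.23 ± 0.12) or Txnip (-0.26 ± 0.12). Over the 15 genes the median log2 change was 0.15, against 0.00035 over all named genes.

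The vitamin D receptor and its partner bind a direct repeat of 2 hexamers set 3 bases apart, the DR3 element. RefSeq windows of assembly GRCr8, reaching from 250 bases before to 50 bases after a gene's start, were searched on both strands for this element with at most 1 mismatch over its 12 specified positions. Windows were found for 97 of the 129 genes that rose and 65 of the 78 that fell. A match lay in 2 of the 97 (2.06%), in 1 of the 65 (1.54%), in 1.42% of the 5493 measured genes with a window and in 1.92% of the 27457 genes of the table, so that the shares of the called genes were near those of all genes. With 2 mismatches allowed the shares were 23.7%, 15.4%, 16.3% and 19.7% in the same order. The 3 windows are printed 5′ to 3′ along the gene because they belong to called genes and hold a match, which is in capitals. A match is a description of these letters and not a binding site. The window of Sema4a lies at chr2:176212209-176212508 (minus strand), that of Clec7a at chr4:164599778-164600077 (minus strand) and that of Noct at chr2:137421824-137422123 (plus strand). Counted from the start of the gene, the matches begin at base -158 in Sema4a, -82 in Clec7a and -77 in Noct.
Sema4a: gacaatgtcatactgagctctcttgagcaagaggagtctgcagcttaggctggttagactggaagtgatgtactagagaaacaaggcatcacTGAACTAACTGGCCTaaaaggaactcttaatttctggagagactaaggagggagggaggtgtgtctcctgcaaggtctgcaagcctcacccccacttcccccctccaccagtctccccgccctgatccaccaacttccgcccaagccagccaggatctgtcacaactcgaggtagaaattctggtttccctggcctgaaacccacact
Clec7a: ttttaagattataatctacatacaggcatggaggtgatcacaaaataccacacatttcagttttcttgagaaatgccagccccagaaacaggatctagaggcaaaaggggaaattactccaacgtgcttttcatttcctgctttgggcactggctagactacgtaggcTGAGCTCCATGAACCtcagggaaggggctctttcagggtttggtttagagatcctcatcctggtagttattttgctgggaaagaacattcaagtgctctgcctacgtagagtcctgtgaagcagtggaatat
Noct: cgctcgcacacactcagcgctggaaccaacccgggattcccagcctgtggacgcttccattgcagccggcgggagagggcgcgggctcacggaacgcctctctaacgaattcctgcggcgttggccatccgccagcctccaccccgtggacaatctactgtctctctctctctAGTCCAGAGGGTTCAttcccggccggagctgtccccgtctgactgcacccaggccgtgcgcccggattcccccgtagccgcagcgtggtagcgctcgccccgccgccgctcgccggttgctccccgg

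The largest rises joined genes of unlike function. Cela2a, known as a pancreatic elastase, had 9.11 and 9.16 on the calcitriol arrays, against 4.80 and 4.74 on the vehicle arrays, undetected with vehicle, and a rise of at least 7.80-fold (adjusted p = 0.000155). Amigo2, a leucine-rich repeat adhesion protein, had 10.51 and 10.74 on the calcitriol arrays, against 7.83 and 7.81 on the vehicle arrays, a 7.01-fold rise (log2 change 2.81 ± 0.14). Acp3, the prostatic acid phosphatase, had 9.22 and 9.31 on the calcitriol arrays, against 6.54 and 6.35 on the vehicle arrays, a 7.05-fold rise (log2 change 2.82 ± 0.13). In each of these genes the groups lay much farther apart than the replicates, which their choice as the largest called rises nearly fixed beforehand. Without background correction the log2 changes were 2.96 for Cela2a and 2.07 for Acp3. Sema4a, a class 4 semaphorin, had 14.10 and 13.93 on the calcitriol arrays, against 11.93 and 12.09 on the vehicle arrays, and rose 4.01-fold (log2 change 2.00 ± 0.14, adjusted p = 0.00262). Mfng, the glycosyltransferase manic fringe that modifies Notch receptors, had 10.84 and 10.92 on the calcitriol arrays, against 8.92 and 8.88 on the vehicle arrays, and rose 3.95-fold (adjusted p = 0.00184). Rras2, a Ras-related GTPase also called TC21, had 10.25 and 10.74 on the calcitriol arrays, against 8.55 and 8.47 on the vehicle arrays, and rose 3.95-fold. Gem, a small GTPase that inhibits calcium channels, had 8.60 and 8.52 on the calcitriol arrays, against 6.49 and 6.30 on the vehicle arrays, and rose 4.49-fold (log2 change 2.17, and 1.49 without background correction).

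Further large rises were of genes in and outside the lists. Ripk3, the kinase that starts necroptosis, had 11.52 and 11.65 on the calcitriol arrays, against 9.95 and 9.87 on the vehicle arrays, a 3.19-fold rise (adjusted p = 0.00309). Plcd1, a phospholipase C, had 12.66 and 12.61 on the calcitriol arrays, against 10.99 and 10.95 on the vehicle arrays, and rose 3.16-fold (adjusted p = 0.00289). Slc5a3, which carries myo-inositol into cells with sodium, rose 3.25-fold, with 11.76 and 11.89 on the calcitriol arrays, against 10.12 and 10.14 on the vehicle arrays. The mitochondrial carrier gene Slc25a30 had 8.99 and 9.33 on the calcitriol arrays, against 7.35 and 7.37 on the vehicle arrays, and rose 3.48-fold. Hoga1, an aldolase of hydroxyproline breakdown, and Arg2, the mitochondrial arginase, were not detected with vehicle and were at least 2.32-fold and at least 1.70-fold higher. Abcb4, the phosphatidylcholine transporter of the bile canaliculus, had 9.003 and 9.07 on the calcitriol arrays, against 7.23 and 7.41 on the vehicle arrays, and rose 3.30-fold, and Plbd1, a phospholipase B-like protein, had 9.49 and 9.39 on the calcitriol arrays, against 7.65 and 7.43 on the vehicle arrays, and rose 3.74-fold. Fbxo2, an F-box protein that recognises glycoproteins, had 8.05 and 7.93 on the calcitriol arrays, against 5.56 and 6.42 on the vehicle arrays, and passed as higher (log2 change 2.00, adjusted p = 0.0193). Its signal was detected on 1 of the 2 vehicle arrays, and the log2 change was 1.23 without background correction. The same holds for Gnb5, a G protein beta subunit, and Itgb1bp2, the muscle protein melusin, which rose by 1.69 and 1.64 on the log2 scale, and by 0.97 and 1.01 without background correction.

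**Figure D2:**
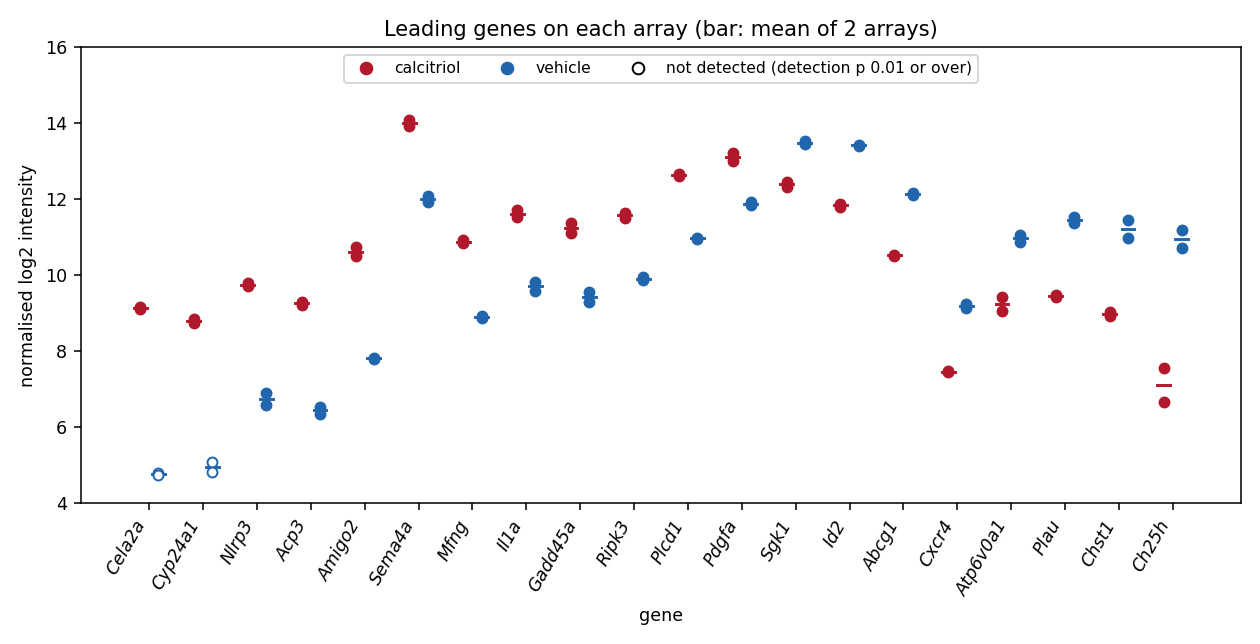
Normalised log2 intensity of 20 called genes on each array (calcitriol in red, vehicle in blue, bars are the mean of the 2 arrays, open circles mark arrays on which the gene was not detected). In every gene shown both calcitriol points lie on the same side of both vehicle points, with replicate points of Ch25h the farthest apart.

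The deepest fall was that of Ch25h, cholesterol 25-hydroxylase. It had 7.56 and 6.67 on the calcitriol arrays, against 11.20 and 10.72 on the vehicle arrays, a 14.4-fold fall (log2 change -3.84 ± 0.31, and -3.24 without background correction, adjusted p = 0.00348), and remained detected on both calcitriol arrays. Chst1, a keratan sulfate sulfotransferase, had 8.92 and 9.04 on the calcitriol arrays, against 11.45 and 10.99 on the vehicle arrays, and fell 4.74-fold (adjusted p = 0.00348). Plau, the urokinase plasminogen activator, had 9.48 and 9.43 on the calcitriol arrays, against 11.53 and 11.39 on the vehicle arrays, and fell 4.02-fold (adjusted p = 0.00185). Id2, an inhibitor of basic helix-loop-helix factors, had 11.81 and 11.88 on the calcitriol arrays, against 13.43 and 13.41 on the vehicle arrays, and fell 2.98-fold (log2 change -1.58 ± 0.12). Tmed5, a cargo receptor between endoplasmic reticulum and Golgi, had 8.42 and 8.32 on the calcitriol arrays, against 10.03 and 9.75 on the vehicle arrays, and fell 2.87-fold. The falls of Noct, Tmem26, Mical1 and Exo5 were of 2.72, 2.56, 2.54 and 2.23-fold. Noct encodes nocturnin, a rhythmically expressed phosphatase of nicotinamide dinucleotides, Mical1 an enzyme that oxidises and dismantles actin filaments, and Exo5 a DNA exonuclease. Tfec, a MiT family transcription factor of macrophages, had 7.12 and 6.78 on the calcitriol arrays, against 8.52 and 7.995 on the vehicle arrays, and fell 2.48-fold. Abr, which switches off Rac and Cdc42, fell 2.15-fold, with 11.02 and 10.93 on the calcitriol arrays, against 12.07 and 12.10 on the vehicle arrays. The kinase gene Nek8, detected on 1 of the 2 calcitriol arrays, fell by 1.08 on the log2 scale. Of the genes not detected with calcitriol, the ETS factor Etv1 and the myotubularin-related Sbf1 were at least 1.37-fold and at least 1.43-fold lower.

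Genes of innate recognition changed in both directions. Of 20 measured sensors and inflammasome genes, 4 rose and 3 fell (range 1 to 6 higher, 1 to 4 lower), against 1.97% and 1.19% of all named genes, and the median log2 change was 0.05. Nlrp3, the sensor that assembles the interleukin-1 beta processing inflammasome, had 9.72 and 9.80 on the calcitriol arrays, against 6.90 and 6.58 on the vehicle arrays, an 8.10-fold rise (log2 change 3.02 ± 0.15, and 2.35 without background correction, adjusted p = 0.00104). Clec7a, the beta-glucan receptor dectin-1, rose 2.13-fold, with 11.17 and 11.32 on the calcitriol arrays, against 10.30 and 10.02 on the vehicle arrays. The cell surface receptors for bacterial lipopeptides and lipopolysaccharide rose less: Tlr2 had 12.28 and 12.23 on the calcitriol arrays, against 11.41 and 11.31 on the vehicle arrays, a 1.85-fold rise. Tlr4 had 8.32 and 8.29 on the calcitriol arrays, against 7.52 and 7.58 on the vehicle arrays, a 1.69-fold rise. In contrast, the endosomal RNA sensor Tlr7 had 6.62 and 6.87 on the calcitriol arrays, against 8.15 and 7.82 on the vehicle arrays, and fell 2.36-fold (adjusted p = 0.0193). The lectin receptors Clec4a1 and Clec4a3 fell 2.80-fold and 2.20-fold. Cd180, which restrains Tlr4 signalling and stands outside the list, fell 2.47-fold, with 6.21 and 6.12 on the calcitriol arrays, against 7.45 and 7.48 on the vehicle arrays. Under another background correction or normalization the log2 changes were as small as -0.84 for Tlr7 and -0.77 for Cd180. The inflammatory caspase Casp4 and the adaptor Myd88 had log2 changes of 0.62 ± 0.14 and -0.58 ± 0.14 that did not pass.

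Cytokine genes followed no single direction. Il1a, the alarmin interleukin-1 alpha, had 11.53 and 11.72 on the calcitriol arrays, against 9.83 and 9.59 on the vehicle arrays, a 3.76-fold rise (adjusted p = 0.00309). Csf3, or G-CSF, rose 2.22-fold, with 8.94 and 8.75 on the calcitriol arrays, against 7.77 and 7.61 on the vehicle arrays, and Il6r, the interleukin-6 receptor, fell 1.69-fold, with 6.68 and 6.56 on the calcitriol arrays, against 7.28 and 7.47 on the vehicle arrays. These were the called genes among 21 measured interleukins, colony stimulating factors and TNF family members (range 2 to 3 higher, 0 to 1 lower). Il6 had a log2 change of 0.47 ± 0.13 (95% interval 0.17 to 0.78, adjusted p = 0.122). Tnfsf13b, the B cell survival factor BAFF, stood outside that list. It was not detected with vehicle and was at least 1.27-fold higher. Of 22 measured chemokines and receptors 0 rose and 3 fell (range 0 to 0 higher, 1 to 5 lower), against 1.97% and 1.19% of all named genes, and 16 of the 22 had values below 0 (median -0.13). Cxcr4, the receptor of Cxcl12, had 7.45 and 7.49 on the calcitriol arrays, against 9.26 and 9.15 on the vehicle arrays, and fell 3.33-fold (adjusted p = 0.00289). The monocyte attractant Ccl12 had 12.97 and 12.67 on the calcitriol arrays, against 14.02 and 13.84 on the vehicle arrays, a 2.16-fold fall, and the receptor Ccr1 had 10.60 and 10.70 on the calcitriol arrays, against 11.93 and 11.53 on the vehicle arrays, and fell 2.12-fold.

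Lists of downstream signalling gave few calls. Of 20 measured NF-kappa B genes 1 passed (range 0 to 5 higher, 0 to 2 lower). This was the adhesion molecule gene Vcam1, with 8.19 and 8.59 on the calcitriol arrays, against 7.13 and 7.15 on the vehicle arrays, a 2.38-fold rise. Icam1 and Sod2, further classical NF-kappa B targets, had log2 changes of 0.73 ± 0.14 and 0.73 ± 0.14 (adjusted p = 0.0580 and 0.0583), while Tnip2 had -0.76 ± 0.14 (adjusted p = 0.0544). In the JAK-STAT list the cytokine-induced inhibitor Socs2 and the phosphatase gene Ptpn1 rose 1.84-fold and 1.65-fold, 2 of 20 genes (range 0 to 2 higher, 0 to 0 lower). In the interferon list Oasl rose 1.85-fold and Irf5, the transcription factor that acts below Tlr7, fell 1.98-fold, with 8.63 and 8.69 on the calcitriol arrays, against 9.56 and 9.74 on the vehicle arrays, while 29 of 31 genes did not pass (range 0 to 2 higher, 0 to 3 lower).

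**Figure D3:**
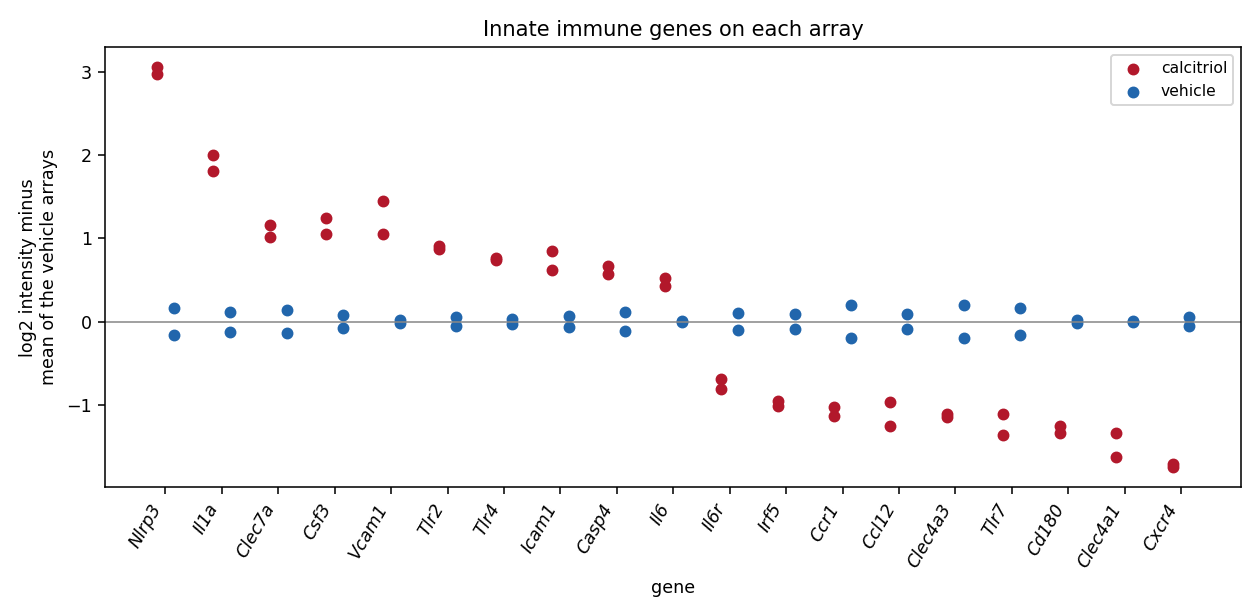
Innate immune and inflammatory genes on each array, drawn as the log2 intensity minus the mean of the 2 vehicle arrays (calcitriol in red, vehicle in blue). Nlrp3, Il1a, Clec7a, Csf3, Vcam1, Tlr2 and Tlr4 passed the threshold as higher and Il6r, Irf5, Ccr1, Ccl12, Clec4a3, Tlr7, Cd180, Clec4a1 and Cxcr4 as lower, whereas Icam1, Casp4 and Il6 did not pass.

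Many of these genes are at home in macrophages, so the macrophage markers are given beside them. Of 24 measured macrophage and Kupffer cell markers 0 rose and 1 fell (range 0 to 2 higher, 0 to 4 lower), and 16 had values below 0 (median log2 change -0.11). The gene that fell was Ptprc, or CD45, with 8.72 and 8.71 on the calcitriol arrays, against 10.16 and 9.73 on the vehicle arrays, a 2.35-fold fall (adjusted p = 0.0203). The log2 of the summed level of the marker list was 17.19 and 17.18 on the calcitriol arrays and 17.25 and 17.28 on the vehicle arrays. Fcgr3a and Itgam had log2 changes of -0.71 ± 0.14 and -0.55 ± 0.13, which did not pass (adjusted p = 0.0546 and 0.0894). In RNA of a whole culture, fewer cells of a type and less RNA per cell cannot be told apart, and the part of macrophages in the results above was not tested.

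Other leukocyte signalling genes split evenly. Of 31 measured leukocyte phosphatases and adaptors 3 rose and 3 fell (range 2 to 5 higher, 2 to 4 lower), against 1.97% and 1.19% of all named genes. Coro1a, the leukocyte actin-binding protein coronin 1A, had 13.98 and 14.20 on the calcitriol arrays, against 12.65 and 12.82 on the vehicle arrays, and rose 2.56-fold (adjusted p = 0.00826). Ptprcap, a partner of CD45, and the adaptor gene Lat2 were not detected with vehicle and were at least 1.99-fold and at least 1.31-fold higher. The called receptor phosphatases fell. Ptpre had 6.54 and 6.77 on the calcitriol arrays, against 8.20 and 8.04 on the vehicle arrays, a 2.76-fold fall, and Ptpro had 9.56 and 9.61 on the calcitriol arrays, against 10.61 and 10.72 on the vehicle arrays, a 2.11-fold fall. Ptprc, given above, was the other fall. Of 9 measured lymphocyte and NK cell markers 2 rose (range 1 to 3 higher, 0 to 0 lower), Ptprcap and the granule protein gene Nkg7, the second being at least 1.32-fold higher. Cd8a of T cells and Blnk of B cells had log2 changes of 0.92 ± 0.21 and -0.45 ± 0.14 that did not pass. Cd69, an early activation antigen of leukocytes, was not detected with vehicle and was at least 2.09-fold higher.

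Growth factor genes had the highest median of the lists. Of 19 measured PDGF, EGF, FGF, HGF and VEGF family genes 3 rose and 0 fell (range 1 to 5 higher, 0 to 1 lower), against 1.97% and 1.19% of all named genes, and the median log2 change was 0.36, with values above 0 in 13. Pdgfa, a mitogen for stellate cells and fibroblasts, had 13.02 and 13.21 on the calcitriol arrays, against 11.93 and 11.84 on the vehicle arrays, a 2.34-fold rise (log2 change 1.23 ± 0.14, adjusted p = 0.00936). The EGF receptor ligand amphiregulin (Areg) had 6.24 and 6.85 on the calcitriol arrays, against 5.31 and 5.22 on the vehicle arrays, undetected with vehicle and at least 1.39-fold higher. Heparin-binding EGF-like growth factor (Hbegf) had 10.12 and 9.90 on the calcitriol arrays, against 9.24 and 8.997 on the vehicle arrays, and rose 1.86-fold (adjusted p = 0.0387). Another ligand of that receptor family, epiregulin (Ereg), had a log2 change of 0.69 ± 0.16 that did not pass (95% interval 0.31 to 1.08), and Hgf, a stellate cell product that supports hepatocytes, had -0.50 ± 0.12 (-0.80 to -0.20). The insulin-like growth factor axis had 0 of 9 genes past the threshold in limma's test, with 1 at an unadjusted p under 0.05.

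Matrix genes, the products of the activated stellate cell, did not pass as single genes. Of 19 measured genes of fibrillar collagens and their assembly 0 passed (range 0 to 0 higher, 0 to 1 lower), of 26 other matrix genes 0 passed (range 0 to 0 higher, 0 to 1 lower), and the median log2 changes were -0.05 and -0.09. With limma's unadjusted p under 0.05 there were 1 and 2 such genes, against 1530 of all 8899 probes. Col1a1 had 9.98 and 9.93 on the calcitriol arrays, against 10.05 and 10.19 on the vehicle arrays, a log2 change of -0.17 ± 0.13 (95% interval -0.48 to 0.14). Col1a2 had 13.75 and 14.10 on the calcitriol arrays, against 13.80 and 13.67 on the vehicle arrays, a log2 change of 0.19 ± 0.16 (-0.20 to 0.59). The 2 chains of collagen I thus had values of opposite sign, both with intervals that contain 0, and the arrays of Col1a2 overlapped between the groups. Col3a1 had 8.43 and 8.39 on the calcitriol arrays, against 9.01 and 9.12 on the vehicle arrays, and came closest to the threshold, at -0.65 ± 0.13 (-0.96 to -0.34, adjusted p = 0.0554). Sparc, a collagen-binding matricellular protein, had -0.64 ± 0.15 (-1.01 to -0.27, adjusted p = 0.0964). For Fn1, fibronectin, the value was -0.19 ± 0.17 (-0.60 to 0.22), which turned to 0.00885 without calcitriol replicate 2. Spp1, osteopontin, had -0.22 ± 0.12 and Col5a1 -0.24 ± 0.15. The sign of the median of the fibrillar collagen list depended on the scaling of the arrays.

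The contractile and protease genes stood likewise. Of 28 contractile and actin cytoskeleton genes 0 passed in limma's test (range 0 to 2 higher, 0 to 1 lower), 5 had an unadjusted p under 0.05, and 14 values lay on either side of 0. Tagln, transgelin, had 11.85 and 12.13 on the calcitriol arrays, against 11.59 and 11.78 on the vehicle arrays, a log2 change of 0.30 ± 0.15 (95% interval -0.07 to 0.68), and Csrp1, a LIM protein of smooth muscle, had 0.58 ± 0.12 (0.28 to 0.88, adjusted p = 0.0709). Acta2, smooth muscle actin, has no named probe and was not analysed here. Of 16 metalloproteinases and inhibitors 0 passed (range 0 to 0 higher, 0 to 2 lower, 4 at an unadjusted p under 0.05), with Timp1 at 0.16 ± 0.13 (-0.16 to 0.47) and Mmp14 at -0.36 ± 0.13 (-0.68 to -0.05). Of 13 plasminogen and coagulation genes Plau alone passed, and its relative Plat had -0.25 ± 0.14.

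In the TGF-beta, SMAD and BMP list Id2 fell and 28 of 29 genes did not pass (range 0 to 1 higher, 1 to 2 lower, median -0.06). Tgfb1, the main fibrogenic cytokine of the liver, had 11.67 and 11.43 on the calcitriol arrays, against 11.82 and 11.90 on the vehicle arrays, a log2 change of -0.31 ± 0.14 (95% interval -0.66 to 0.03). Smad7, the inhibitory SMAD, had 0.22 ± 0.18 (-0.21 to 0.64). Id1, a BMP target and relative of Id2, had -0.70 ± 0.15 (adjusted p = 0.0754). Tgfbi, a TGF-beta induced matrix protein, had 5.61 and 5.72 on the calcitriol arrays, against 6.21 and 6.55 on the vehicle arrays. It was not detected on either calcitriol array, and its change did not pass (adjusted p = 0.0826). Bambi, a decoy receptor that falls when stellate cells are activated, had 0.53 ± 0.13 (0.21 to 0.85).

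**Figure D4:**
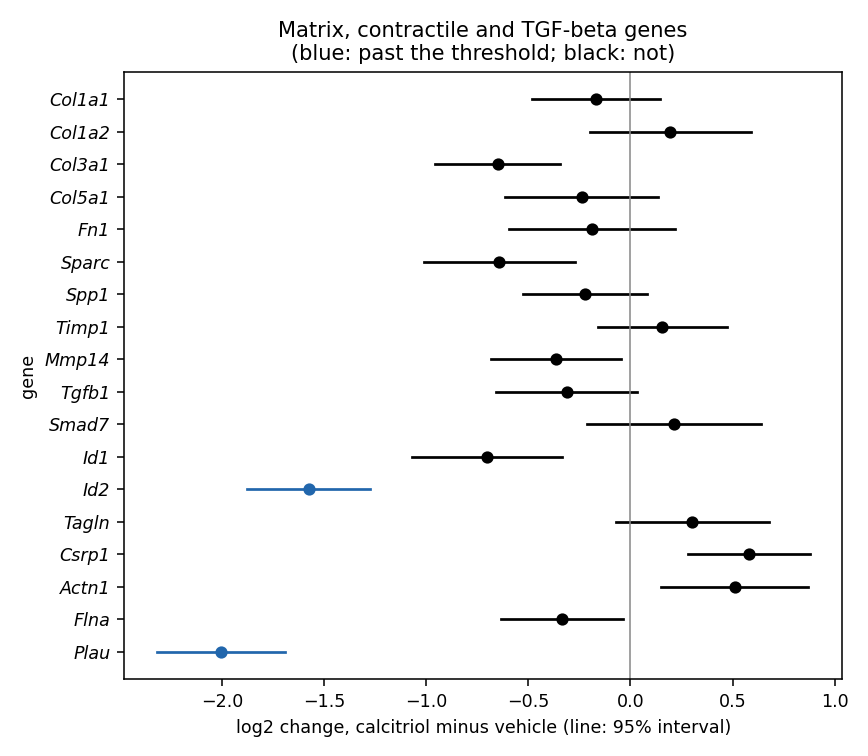
Log2 change (calcitriol minus vehicle, horizontal axis) of matrix, contractile, TGF-beta and protease genes with the 95% interval of each value. Id2 and Plau, in blue, passed the threshold, and the remaining genes, in black, did not, with Col1a1 and Col1a2 on opposite sides of 0.

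The list of cholesterol efflux genes and targets of the liver X receptors, which sense oxysterols, had the lowest median of any list of at least 10 measured genes. Of 17 measured genes 0 rose and 3 fell (range 0 to 0 higher, 2 to 5 lower), against 1.97% and 1.19% of all named genes, 14 had values below 0, and the median log2 change was -0.24. Abcg1, which exports cholesterol to lipoproteins, had 10.54 and 10.52 on the calcitriol arrays, against 12.11 and 12.17 on the vehicle arrays, a 3.06-fold fall (log2 change -1.61 ± 0.12, adjusted p = 0.00309). Srebf1, the master factor of fatty acid synthesis, had 8.52 and 8.69 on the calcitriol arrays, against 9.55 and 9.61 on the vehicle arrays, and fell 1.97-fold (adjusted p = 0.0184). The list also holds Ch25h, whose product 25-hydroxycholesterol is a ligand of these receptors, and Ch25h was the other gene that fell. Nr1h3, which encodes LXR alpha itself, had -0.71 ± 0.14 (95% interval -1.05 to -0.38) and did not pass (adjusted p = 0.0544). Abca1, the exporter that loads apolipoprotein A-I, had the highest value of the list, 0.30 ± 0.12 (adjusted p = 0.292), and did not pass.

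Among lipid enzymes, the desaturase gene Scd2 had 10.67 and 10.81 on the calcitriol arrays, against 11.75 and 11.68 on the vehicle arrays, and fell 1.96-fold, one of 2 falls among 24 genes of cholesterol and fatty acid synthesis (range 0 to 0 higher, 0 to 2 lower). Dgat2, which makes triglyceride, had 8.71 and 8.57 on the calcitriol arrays, against 9.65 and 9.75 on the vehicle arrays, and fell 2.08-fold (adjusted p = 0.0136), the one call among 25 lipid droplet genes (range 0 to 1 higher, 1 to 6 lower). In that list Cebpa, an adipogenic transcription factor, had -1.15 ± 0.22 (adjusted p = 0.0554) and the droplet coat gene Plin2 had -0.62 ± 0.13 (adjusted p = 0.0696), and neither passed. Of 10 retinoid storage genes 0 passed in limma's test, with 1 at an unadjusted p under 0.05. Lrat, which esterifies retinol in stellate cells, has no named probe.

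Genes of the immediate early class changed in both directions. Of 33 measured AP-1 and immediate early genes 2 rose and 4 fell (range 2 to 7 higher, 1 to 6 lower), against 1.97% and 1.19% of all named genes, with values below 0 in 20 (median -0.14). Jdp2, which dimerises with Jun proteins and represses AP-1, had 7.53 and 7.53 on the calcitriol arrays, against 5.53 and 5.40 on the vehicle arrays, undetected with vehicle and at least 2.22-fold higher. Gem, described above, was the second riser. The falls were those of the serum and glucocorticoid regulated kinase gene Sgk1, Klf6, Ier5 and Atf3. Sgk1 had 12.47 and 12.34 on the calcitriol arrays, against 13.46 and 13.53 on the vehicle arrays, a 2.13-fold fall (adjusted p = 0.0115). Klf6, a zinc finger factor first described in activated stellate cells, had 11.71 and 11.50 on the calcitriol arrays, against 12.53 and 12.71 on the vehicle arrays, a 2.03-fold fall. Atf3 fell 1.69-fold. Ier5 fell 1.81-fold by the probe used here, whereas its second probe had a log2 change of -0.21 that did not pass (adjusted p = 0.540). Junb had 0.78 ± 0.16 and did not pass (adjusted p = 0.0665). Among 8 other nuclear receptors the thyroid hormone receptor gene Thrb rose 1.81-fold, with 9.79 and 9.69 on the calcitriol arrays, against 8.73 and 9.04 on the vehicle arrays.

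Genes of cell contact and guidance moved in both directions. Of 25 measured integrins, cadherins and adhesion molecules 3 rose and 2 fell (range 1 to 5 higher, 0 to 6 lower), against 1.97% and 1.19% of all named genes, and 18 had values below 0 (median -0.21). Mpzl2, an immunoglobulin family adhesion protein, had 8.32 and 7.67 on the calcitriol arrays, against 5.40 and 5.89 on the vehicle arrays, undetected with vehicle and at least 2.66-fold higher, and Cdh17, a cadherin of liver and intestine, was at least 1.22-fold higher. Vcam1 rose as given above, whereas Itga4, a chain of its integrin receptor, had 8.25 and 8.11 on the calcitriol arrays, against 9.25 and 9.05 on the vehicle arrays, and fell 1.96-fold (adjusted p = 0.0221). Cd44, the hyaluronan receptor, had 10.75 and 10.51 on the calcitriol arrays, against 11.58 and 11.53 on the vehicle arrays, and fell 1.90-fold. Of 15 guidance genes Amigo2 and Sema4a rose and 2 fell (range 2 to 3 higher, 1 to 2 lower). The falls were of Flrt3, a fibronectin leucine-rich transmembrane protein that was at least 1.53-fold lower and not detected with calcitriol, and of Plxnd1, a semaphorin receptor, at 1.79-fold.

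Of 18 Wnt, Notch and hedgehog genes 0 rose and 2 fell (range 0 to 1 higher, 0 to 2 lower), and their median was near 0. The receptor gene Notch1 had 8.01 and 8.02 on the calcitriol arrays, against 8.76 and 8.95 on the vehicle arrays, and fell 1.79-fold (adjusted p = 0.0309). Outside the list, the fringe enzyme gene Mfng rose as given above, and Lfng, lunatic fringe, was not detected with vehicle and was at least 1.30-fold higher. Wnt6, a Wnt ligand, fell 1.59-fold.

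Enzymes that build glycans changed in both directions: 2 of 28 rose and 3 fell (range 1 to 6 higher, 3 to 4 lower), against 1.97% and 1.19% of all named genes. The polysialyltransferase gene St8sia4 had 8.34 and 8.41 on the calcitriol arrays, against 6.71 and 6.49 on the vehicle arrays, a 3.41-fold rise (adjusted p = 0.00309), and the sialyltransferase gene St3gal6 rose 1.75-fold. Chst1, given above, B3gnt7 and Chst12 fell. B3gnt7, which extends keratan sulfate chains, had 6.03 and 5.86 on the calcitriol arrays, against 7.40 and 7.50 on the vehicle arrays, was not detected with calcitriol and was at least 1.82-fold lower. Chst12, a chondroitin sulfotransferase, had 6.37 and 6.35 on the calcitriol arrays, against 7.45 and 7.56 on the vehicle arrays, and fell 2.21-fold. Under another background correction or normalization the log2 changes were as small as -0.70 for Chst12 and 1.23 for St8sia4. Chst10 and the extracellular sulfatase gene Sulf2 had log2 changes of 0.73 ± 0.14 and 0.78 ± 0.15 that did not pass (adjusted p = 0.0533 and 0.0545).

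A few transport and lysosomal genes changed. Of 46 lysosomal and proton pump genes 1 rose and 2 fell (range 1 to 2 higher, 1 to 6 lower), against 1.97% and 1.19% of all named genes. The a1 and d2 subunit genes of the membrane sector of the proton pump both fell: Atp6v0a1 had 9.42 and 9.05 on the calcitriol arrays, against 10.89 and 11.07 on the vehicle arrays, a 3.34-fold fall, and Atp6v0d2 had 9.92 and 9.83 on the calcitriol arrays, against 10.70 and 10.56 on the vehicle arrays, a 1.68-fold fall. Cathepsin E (Ctse) was not detected with vehicle and was at least 1.87-fold higher. Of 40 solute carriers and ion transport genes Slc5a3 and Slc25a30 rose and Kcnn4, Atp1b1 and Atp2b1 fell (range 2 to 4 higher, 1 to 5 lower). Kcnn4, the calcium-activated potassium channel KCa3.1, had 8.87 and 8.75 on the calcitriol arrays, against 10.06 and 10.23 on the vehicle arrays, and fell 2.51-fold (adjusted p = 0.00702), and the sodium pump beta chain gene Atp1b1 fell 1.86-fold.

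In the list of G protein coupled receptors, their regulators and cyclic nucleotide genes, 5 of 34 measured genes rose and 0 fell (range 2 to 7 higher, 0 to 0 lower), against 1.97% and 1.19% of all named genes. The neuropeptide gene Nmu, neuromedin U, had 8.38 and 8.37 on the calcitriol arrays, against 5.95 and 5.66 on the vehicle arrays, undetected with vehicle and at least 3.09-fold higher. Ramp1, the accessory protein of the calcitonin gene-related peptide receptor, had 7.17 and 7.33 on the calcitriol arrays, against 5.48 and 5.98 on the vehicle arrays, and was at least 1.78-fold higher. The orphan receptor gene Gprc5a was at least 1.59-fold higher. Pde2a, a phosphodiesterase that cyclic GMP stimulates, had 9.44 and 9.31 on the calcitriol arrays, against 8.37 and 8.21 on the vehicle arrays, and rose 2.12-fold, and the G protein regulator Rgs3 rose 1.63-fold. Among members detected on all 4 arrays 2 rose and 0 fell. The median of the whole list was nevertheless -0.07, with 20 of 34 values below 0.

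**Figure D5:**
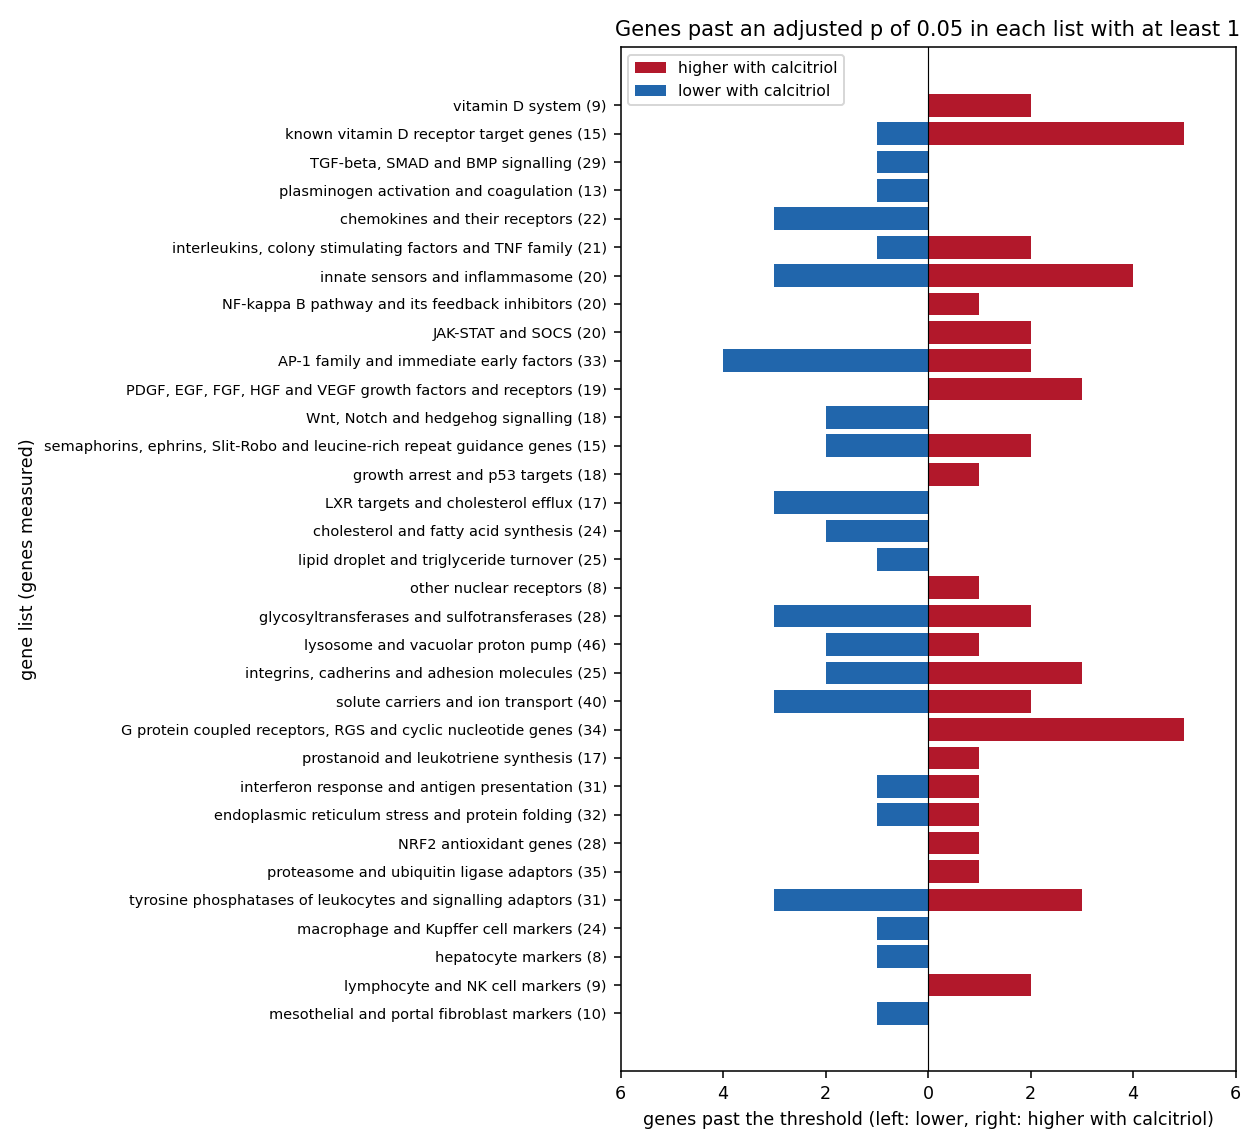
Number of genes past the adjusted p of 0.05 in each gene list with at least 1 such gene, lower with calcitriol to the left and higher to the right, with the number of measured genes of the list in parentheses. Vitamin D receptor targets and the G protein coupled receptor list hold 5 rises each, and the AP-1 list holds 4 falls, the most of any list.

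Few calls fell in the lists of cell cycle, metabolic, ribosomal, MAP kinase and stress genes. In limma's test 0 of 56 cell cycle and DNA replication genes passed, with log2 changes between -0.50 and 0.37, and likewise 0 of 30 glycolysis and hypoxia genes, 0 of 51 ribosomal protein genes, 0 of 46 respiratory chain genes and 0 of 21 MAP kinase genes. At an unadjusted p under 0.05 these lists held 3, 7, 1, 3 and 6 genes in the same order, against 1530 of all 8899 probes. The respiratory chain genes had 39 of 46 values above 0, at a median of 0.11. Gadd45a was the call among 18 growth arrest and p53 targets. In the lists of protein folding, antioxidant, prostanoid and proteasome genes, Xbp1, a factor of the unfolded protein response, rose 1.64-fold, the growth inhibitor gene Osgin1 1.84-fold and the phospholipase gene Pla2g7 1.85-fold, beside Tmed5 and Fbxo2 given above. Of 20 complement and Fc receptor genes 0 passed, with 5 at an unadjusted p under 0.05.

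Markers of other cells in the culture gave few calls. Of 16 measured stellate cell markers 0 passed (range 0 to 0 higher, 0 to 2 lower, median -0.03), of 16 sinusoidal endothelial markers 0, of 4 biliary markers 0 and of 7 dendritic cell and neutrophil markers 0. At an unadjusted p under 0.05 in limma's test there were 5, 2, 1 and 1 such markers in that order, against 1530 of all 8899 probes. Median log2 changes were -0.16 for the endothelial, -0.14 for the biliary and -0.03 for the dendritic cell and neutrophil markers. The log2 of the summed level of the endothelial markers was 12.89 and 12.91 on the calcitriol arrays, against 13.22 and 13.22 on the vehicle arrays. Of 8 measured hepatocyte markers Arg1, the cytosolic arginase, fell 2.08-fold, with 11.82 and 11.96 on the calcitriol arrays, against 12.93 and 12.97 on the vehicle arrays. Its mitochondrial relative Arg2 was at least 1.70-fold higher. Over the 8 hepatocyte markers the median log2 change was -0.29. The log2 of their summed level was 12.63 and 12.64 on the calcitriol arrays, against 13.38 and 13.39 on the vehicle arrays. The drop of this sum was largely that of Arg1, so it says little of the other markers. Among 10 mesothelial and portal fibroblast markers Pi16 fell 1.72-fold.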

How the data were processed

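Per the labels, biotinylated cRNA of total RNA was hybridised to Illumina arrays, all on 1 chip. GenomeStudio 2011.1 was used, per the submitters' processing notes. The authors' deposited table gives each probe's linear intensity and the standard error of its bead signal, per the file headers. It also holds, as deposited, the count of beads and a detection p-value against negative controls. Per the file headers, no background subtraction or scaling is named for these intensities. The authors' deposited value table holds quantile-normalised linear intensities, as judged from its values (Spearman correlation with the signals 1.00, column medians 115.7 to 115.9). No aligner or genome build applies to array values, and the sources used here give no build for the probes.

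Background of the deposited intensities on the 4 arrays was corrected and values were quantile-normalised with limma's neqc (limma 3.58.1, R 4.3.3, offset 16). The offset compresses dim signals, yet changes of dim genes were larger than without background correction (Cyp24a1 3.85 against 2.49 on the log2 scale). A probe was kept, as were 8899 of 22523, when 2 or more arrays had a detection p under 0.01. Group means were fitted with lmFit and eBayes (residual degrees of freedom 2, prior 4.21), two-sided, with Benjamini-Hochberg adjustment over all kept probes and a threshold of 0.05. Errors printed after ± are moderated standard errors (n = 2 arrays in each group). Levels of different probes were not set against each other, apart from the summed levels of marker lists. The script was tested on simulated data.

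The platform annotation gives 1 symbol for 13793 probes, several for 0 and none for 8730, and 99.7% of its identifiers occur in RefSeq's gene table for GRCr8. Kept named probes, 6652 in number, represent 6538 genes. For the 108 genes with several probes the brightest was used, and only for Ier5 did calls disagree. Members and gene lists were chosen with earlier results of these data known. Genes named in the report were drawn from the 30 largest called rises and falls (1 of them is not reported here), the called members of each list with up to 4 others of smallest p or of extreme change, called genes detected in only 1 group, and a set of vitamin D, matrix and stellate cell genes. Alternatives concerned background correction, normalization, the filter, the variance model, the threshold, the left-out array, single replicates, the probe of a gene and a replicate block. The array labelled freshly isolated, and the 2247 kept probes with no gene name, were left out of the account of named genes.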

Additional observations from a re-analysis of the deposited data

Results flagged for a closer look

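One result comes from an array outside the comparison. On the array labelled freshly isolated and untreated, the probe of Cyp24a1 had a deposited signal of 381.9 with a detection p of 0.00121, while the signal was 509.9 and 590.7 on the calcitriol arrays and 105.2 and 84.4 on the vehicle arrays, where the probe was not detected. The signal on that array thus lay nearer to those of the calcitriol arrays. For Nlrp3 that array had 746.3, the calcitriol arrays 908.3 and 1098, and the vehicle arrays 211.2 and 155.7. For Ch25h that array had 154.8, with a detection p of 0.0133, the calcitriol arrays 263.3 and 186.0, and the vehicle arrays 2530 and 1428. Nlrp3 and Ch25h were added because they are the gene with the largest rise among those detected in both groups and the gene with the largest fall. The reason for these signals was not tested. With groups of 2 arrays, no test for a single outlying array was possible.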

How the results depend on the processing

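The 273 called probes kept the sign of their change under every alternative in which they were tested, but the number of calls depended on the setting. The separation of the groups in called genes made a turn of sign unlikely from the start. Without background correction 583 probes passed (303 higher, 280 lower), and with the authors' deposited values 563 (297 higher, 266 lower). A normexp offset of 50 gave 422 (245 higher, 177 lower) and a variance trend 673 (327 higher, 346 lower). Without a filter 137 of 22523 probes passed (94 higher, 43 lower), and a minimum fold of 1.2 left 135 (92 higher, 43 lower). An unadjusted p under 0.01 with a 1.5-fold change held for 526 (292 higher, 234 lower). With probes detected on at least 1 array 182 passed, of which 66 were lower. Leaving out single arrays gave 2 to 217 calls, 2 to 140 higher and 0 to 77 lower. The cause of these differences was not tested, except that fits with a single array left out have 1 residual degree of freedom. Median scaling, cyclic loess, robust variances, detection on all 4 arrays and addition of the left-out array kept the total within 1.5 times.

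The labels do not say whether same-numbered arrays were paired. The deviations of same-numbered arrays correlated at r = -0.13 over 8899 probes. This value cannot decide the question, since so few arrays do not separate pairing from other differences between arrays. With the replicate block 225 probes passed (145 higher, 80 lower), of which 210 were shared with the calls reported. A crossed pairing, added after seeing the data, gave 509 calls (282 higher, 227 lower).

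Signs of some uncalled genes turned. Over the fits without single arrays, Rxra ranged from -0.33 to 0.00801, Rxrb from -0.0945 to 0.14 and Fn1 from -0.39 to 0.00885. Values above 0 for Rxra came without calcitriol replicate 1 (0.00792) and without vehicle replicate 1 (0.00801). Rxrb was -0.0304 and -0.0945 in the same fits and -0.0773 as the mean of its probes. Fn1 lay above 0 without calcitriol replicate 2. Other scalings turned the sign of the median of 8 lists whose medians lie near 0, namely MAP kinase, Wnt and Notch, cell cycle, cholesterol and fatty acid synthesis, complement, protein folding, fibrillar collagen and proteasome genes. Probes near background limit what can be seen, since 35 rises and 6 falls concern genes detected in 1 group only, and without background correction changes of dim genes were smaller (Nlrp3 2.35, Ch25h -3.24 and Nmu 1.63 on the log2 scale).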

Other observations

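Further called genes belong to no list and were chosen after their values were seen. Among enzymes of xenobiotic metabolism, Cyp1a1, the classical target of the aryl hydrocarbon receptor, had 10.68 and 10.72 on the calcitriol arrays, against 9.19 and 9.26 on the vehicle arrays, a 2.78-fold rise (adjusted p = 0.00359). Aldh3a1, also a target of that receptor, was not detected with vehicle and was at least 1.17-fold higher. Secreted and signalling proteins were also among the rises. Gdf15, a stress-induced TGF-beta family cytokine, had 9.42 and 9.22 on the calcitriol arrays, against 8.18 and 8.002 on the vehicle arrays, and rose 2.35-fold (adjusted p = 0.0114). Nrtn, the GDNF family ligand neurturin, had 8.72 and 8.87 on the calcitriol arrays, against 7.08 and 7.31 on the vehicle arrays, and rose 3.03-fold. Olr1, a receptor for oxidised low-density lipoprotein, rose 2.27-fold, with 10.70 and 10.62 on the calcitriol arrays, against 9.59 and 9.36 on the vehicle arrays. The adenylyl cyclase gene Adcy4, the G protein alpha subunit gene Gna15 and the purinergic receptor gene P2ry14 rose 2.79-fold, 2.62-fold and 2.50-fold. Slco4a1, an organic anion transporter, rose 2.92-fold.

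Among the falls outside the lists, the clock gene Per1 had 6.51 and 6.46 on the calcitriol arrays, against 7.29 and 7.60 on the vehicle arrays, and fell 1.95-fold (adjusted p = 0.0284). Nedd9, a docking protein of focal adhesions, had 9.42 and 9.50 on the calcitriol arrays, against 10.34 and 10.51 on the vehicle arrays, and fell 1.96-fold. Grk2, which desensitises G protein coupled receptors, fell 1.90-fold, with 6.26 and 6.42 on the calcitriol arrays, against 7.27 and 7.25 on the vehicle arrays. Under another background correction or normalization the log2 changes were as small as -0.54 for Grk2 and -0.60 for Per1. Car2, carbonic anhydrase 2, fell 1.81-fold, Slc16a10, a transporter of aromatic amino acids, 2.07-fold and Zfp36l2, which promotes decay of AU-rich mRNAs, 1.80-fold.

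The remaining called genes detected in 1 group only had small bounds. Those not detected with vehicle were Sez6 (at least 1.73-fold higher), Adarb1 (at least 1.72-fold), Mtus1, Gosr1, Terc, Epb41l4a, Relt, Kcns3, Rassf2, Nfe2, Pacsin1, Ampd1, Ncr3 and Lrrc46 (at least 1.07-fold to at least 1.51-fold). Those not detected with calcitriol were Aasdhppt and Pde1a, at least 1.29-fold and at least 1.34-fold lower. For Sort1, not detected with vehicle, no bound above 1 could be given.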
